A study of Mus musculus with 6 samples.

Results

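Imprinted genes are read mainly from 1 parental allele, and most of them sit in clusters. All 39 genes of this set were taken by symbol from the 23377 gene symbols of the RNA-seq count table, and all 39 were found there. They were grouped into 14 imprinted clusters or single loci and by the parental allele known to be expressed. That allele is the one reported in any tissue, for Ube3a in neurons, and need not hold in the cells used here. The paternal allele is the expressed one for 19 members and the maternal allele for 19, and 1 member, Gnas, has transcripts of both kinds. Expression was measured in hair follicle stem cells, the epithelial cells that renew the hair, sorted by flow cytometry from C57BL/6 mice. There were 2 libraries of the genotype Ring1a/b-/- (knockout) and 2 of the genotype WT (wild type). Each came from 3000 cells by SMART-seq2, in which RNA with a poly(A) tail is copied at full length and the copies are amplified by PCR. The sources used here do not give how and when Ring1a and Ring1b were deleted, the age of the mice or whether the libraries came from separate animals. The p-values therefore measure only the spread between these libraries, which may be technical.

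Imprinting rests on DNA methylation that is set in the egg or the sperm at a control region of each cluster and then copied at every cell division. Such regions act through long non-coding RNAs, insulators or promoters, so that neighbouring genes are silent on opposite parental chromosomes. Many imprinted genes act on fetal growth and are turned down after birth. Either Ring1a or Ring1b serves as the enzyme of Polycomb repressive complex 1, which marks histone H2A with ubiquitin and holds developmental genes silent. In mouse placenta, Polycomb complexes take part in silencing along the cluster controlled by the non-coding RNA Kcnq1ot1. All libraries came from 1 inbred strain and the table counts whole genes, so the parental origin of the RNA was not measured here.

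The knockout libraries held 4844381 and 7740945 counts, against 2785843 and 3056593 in wild-type libraries. The gene of Ring1a, Ring1, had 15.5 and 18.4 CPM in knockout cells and 31.9 and 29.4 CPM in wild-type libraries, and that of Ring1b, Rnf2, had 151 and 153 against 144 and 87.8 CPM. CPM are counts scaled to a common library size after TMM normalization. Neither gene passed edgeR's test (adjusted p = 0.551 and 0.532), and counts over whole genes do not check a deletion of single exons. All 10 follicle stem cell markers were expressed enough to test, among them Lgr5 at 251 and 240 CPM in knockout cells and 140 and 194 CPM in wild-type cells, while Cd34 stood at 15.3 and 2.61 against 24.3 and 20.4 CPM. Sox9 had 172 and 156 CPM in knockout cells against 49.4 and 95.1 CPM in wild-type cells, and Krt15 had 303 and 250.2 against 417 and 362 CPM. Nfatc1 had 38.8 and 34.0 CPM in knockout cells against 0 and 2.34 CPM in wild-type cells, and so was expressed enough to test through knockout libraries only. Each list of markers of other cells had some counts in every library, but several sums rest largely on few genes. The summed level of 14 leukocyte genes was 1092 and 517 CPM in knockout cells against 178 and 183 CPM in wild-type cells, with Cd207 at 0 everywhere. Fibroblast and dermal papilla genes (15) summed to 539 and 341 CPM in knockout cells against 820 and 878 CPM in wild-type cells. Without Dcn, left out after its values were seen, the other 14 summed to 267 and 182 CPM in knockout cells against 227 and 447 CPM in wild-type cells, and the genotypes overlapped. Single genes of the list lay on either side: Crabp1 had 34.7 and 27.6 CPM in knockout cells against 0 and 0 CPM in wild-type cells, and Col1a2 had 13.5 and 5.98 CPM against 11.4 and 139 CPM. Endothelial and mural genes (10) summed to 193 and 183 CPM in knockout cells against 279 and 327 CPM in wild-type cells. Of this, Cspg4 gave 179 and 136 against 102 and 138 CPM, and Acta2 9.89 and 46.7 against 158 and 138 CPM. Pecam1 had 2 and 1 counts against 0 and 35. Melanocyte genes (8, with Sox10 at 0) summed to 187 and 133 against 194 and 197 CPM. Kit alone gave 117 and 87.0 against 127 and 109 CPM. Nerve genes (8) summed to 101 and 118 against 93.4 and 118 CPM, of which Erbb3 gave 71.9 and 67.8 against 48.2 and 81.4 CPM. Merkel cell genes (8) summed to 95.1 and 121 CPM in knockout cells and 7.97 and 34.0 CPM in wild-type cells. Of these 8, 6 had no count in wild-type replicate 1, 2 in wild-type replicate 2 and 2 in knockout replicate 1. Krt18 gave 39.4 and 40.96 CPM of the sum in knockout cells against 3.42 and 5.34 CPM in wild-type cells. Krt8 gave 23.2 and 49.5 against 4.56 and 20.02 CPM. Isl1, Piezo2 and Sox2 were also higher in both knockout libraries. Krt20, with 3 and 1 counts against 0 and 5, and Atoh1, with 0 and 7 against 0 and 2, overlapped. Chga had 0 and 1 counts against 0 and 0. Skeletal muscle genes (8, with Pax7 at 0) summed to 285 and 44.6 CPM in knockout cells and 6.08 and 661 CPM in wild-type cells. The part of these cells in the results below was not tested except where a value bears on it. In such bulk samples, fewer cells of a type and less RNA per cell cannot be told apart.

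Start-site sequences are shown for 4 members. Dlk1 and Meg3 are the oppositely imprinted neighbours that share a control region, and Grb10 and Plagl1 are grouped here as single loci. Whether any window shown lies in the region that carries the imprint was not tested. Each window is a RefSeq sequence on build GRCm38.p6, from 250 bases before to 50 bases after the start, and of several starts the one with the most CpG was taken. Capitals mark the hexamer TGCCGC or, for the other strand, its complement GCGGCA, the core that the imprint guardian ZFP57 is known to bind when its CpG is methylated.
Dlk1, chr12:109452573-109452872, plus strand: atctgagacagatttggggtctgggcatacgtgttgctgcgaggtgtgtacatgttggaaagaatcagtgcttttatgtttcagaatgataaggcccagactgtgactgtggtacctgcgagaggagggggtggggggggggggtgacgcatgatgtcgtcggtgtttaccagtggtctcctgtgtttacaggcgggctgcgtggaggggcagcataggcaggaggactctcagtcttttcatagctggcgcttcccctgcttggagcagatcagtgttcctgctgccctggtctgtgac
Meg3, chr12:109540746-109541045, plus strand: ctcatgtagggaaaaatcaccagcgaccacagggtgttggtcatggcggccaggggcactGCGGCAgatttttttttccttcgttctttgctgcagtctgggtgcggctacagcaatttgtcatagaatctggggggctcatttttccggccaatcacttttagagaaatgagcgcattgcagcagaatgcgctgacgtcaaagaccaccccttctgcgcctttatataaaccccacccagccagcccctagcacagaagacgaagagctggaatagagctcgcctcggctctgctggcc
Grb10, chr11:12037371-12037670, minus strand: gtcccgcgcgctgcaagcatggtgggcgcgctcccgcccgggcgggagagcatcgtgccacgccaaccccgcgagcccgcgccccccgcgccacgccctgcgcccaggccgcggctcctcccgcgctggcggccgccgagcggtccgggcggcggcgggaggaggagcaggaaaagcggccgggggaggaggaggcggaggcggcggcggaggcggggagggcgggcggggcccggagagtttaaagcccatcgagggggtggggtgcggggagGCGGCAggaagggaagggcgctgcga
Plagl1, chr10:13090582-13090881, plus strand: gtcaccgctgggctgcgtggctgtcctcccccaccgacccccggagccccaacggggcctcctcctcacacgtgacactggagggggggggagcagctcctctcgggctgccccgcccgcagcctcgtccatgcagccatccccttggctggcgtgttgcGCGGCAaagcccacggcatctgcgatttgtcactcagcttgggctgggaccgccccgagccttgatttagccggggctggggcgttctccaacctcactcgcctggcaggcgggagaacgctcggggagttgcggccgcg
The Dlk1 window held 9 CpG and no hexamer, and the Meg3 window held 13 CpG and 1 hexamer. The Grb10 window held 45 CpG and the Plagl1 window 26, each with 1 hexamer in the form GCGGCA. Of the 39 members, 32 matched 46 RefSeq windows, and 11 of these windows (23.9%) held the hexamer on either strand. Over all 32851 windows the share was 11.6%. The hexamer contains a CpG, and the median count of CpG was 13 in member windows against 7 in all windows. The shares were not compared at matched CpG content. A match is not a site of binding.

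Of the 39 members, 27 were expressed enough to test, 9 had counts below the filter and 3 had no count in any library. The filter asked for about 2.53 CPM in 2 libraries. Dlk1, Dio3, Peg10 and Ppp1r9a reached it in knockout libraries only, so they could pass only by being higher there. With edgeR's quasi-likelihood test and Benjamini-Hochberg adjustment over 13134 genes, 0 members passed at an adjusted p under 0.05, where 8 genes (0.0609%) did in all. At an unadjusted p under 0.05, edgeR gave 4 members, Dlk1, Peg10, Grb10 and Sgce, all higher in knockout cells. That is 14.8% of the 27 tested, against 16.6% of all genes tested (8.47% higher and 8.16% lower). Without a low-count filter edgeR called 3 members, Dlk1, Peg10 and Grb10, where it called 4.26% of 18827 genes. DESeq2 called 2 members, Dlk1 and Peg10, where it called 12.4% of the genes to which it gave an adjusted p. The authors' deposited table marks as higher Dlk1, Peg10, Sgce and Plagl1, which are 4 of the 39 members (10.3%), and 0 members as lower. It marks 5.36% of all symbols in either direction and 4.56% as higher. The authors' adjusted p was 0.0656 for Sgce and 0.0732 for Plagl1, so their marks do not follow the threshold of 0.05 used here. Levels of the 2 genotypes did not overlap at 17 of the 27 tested members (63%), against 47% of all genes tested. Of the 17, 12 were higher and 5 lower in knockout cells. The 12 include Dlk1, Dio3, Peg10 and Ppp1r9a, whose lack of overlap was fixed by the filter. With 2 libraries against 2 an exact permutation test of a single gene cannot go below p = 0.333, so none is given. Single genes are given with edgeR's values, and some also with those of DESeq2 or limma-voom.

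**Figure D1:**
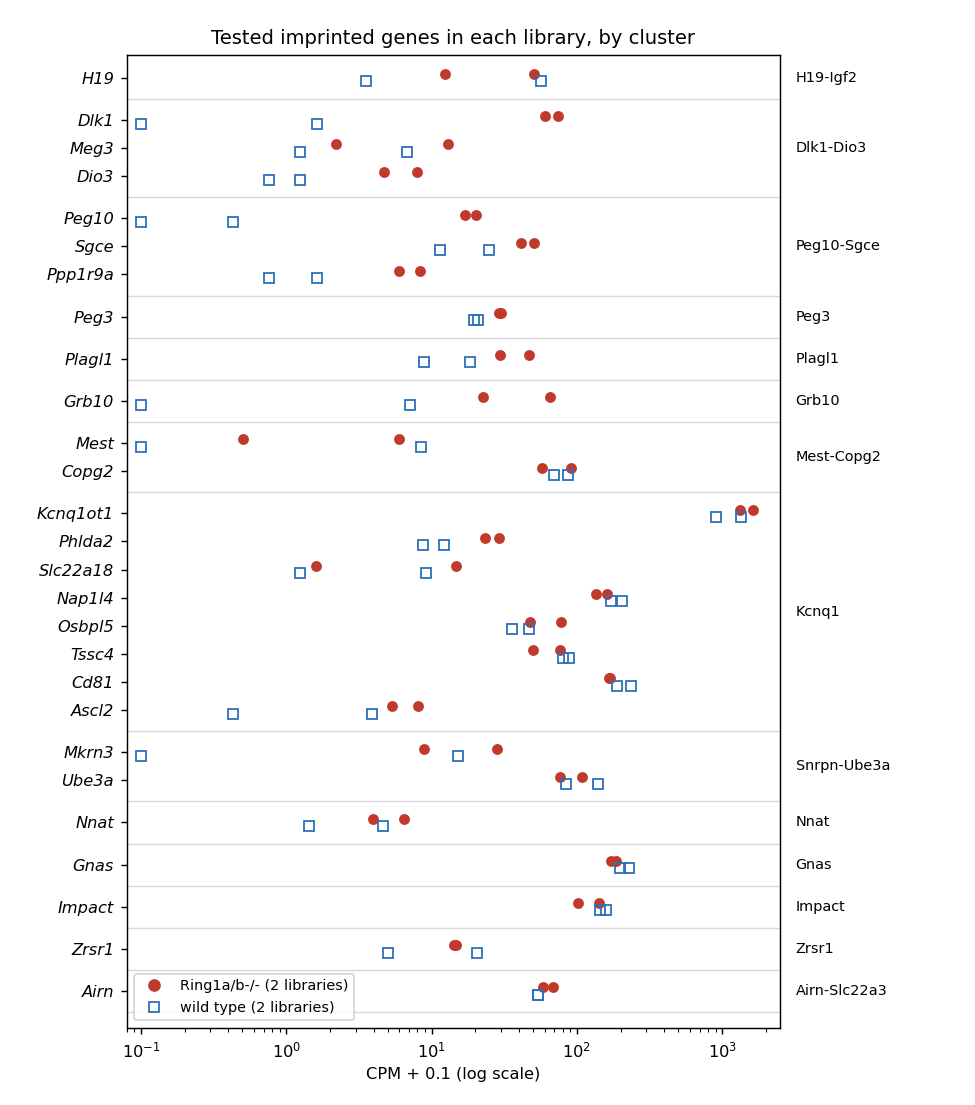
Expression of the 27 tested imprinted genes in each library, grouped by cluster (named at the right). The x axis is CPM + 0.1 on a log scale, filled circles are the 2 Ring1a/b-/- libraries and open squares the 2 wild-type libraries. Dlk1 and Peg10 show the widest separation, and H19, Meg3, Slc22a18 and Mest spread as widely within a genotype as between genotypes.

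The Dlk1-Dio3 cluster holds 3 paternally expressed protein genes and 3 maternally expressed non-coding RNAs. Dlk1, which encodes a membrane protein with EGF repeats that restrains differentiation, had 366 and 485 counts in knockout libraries against 4 and 0 in wild-type libraries. In CPM this is 73.9 and 60.4 in knockout cells against 1.52 and 0 in wild-type cells. Both knockout libraries were far above both wild-type libraries. The ratio of summed counts was 92.2, with a 95% counting interval of 35.9 to 339, and the fitted log2 fold change was 6.48 ± 0.95 (SE, n = 2 per genotype). It missed the threshold over all genes (edgeR adjusted p = 0.0798). DESeq2 called it (adjusted p = 1.34e-11), as did edgeR without wild-type replicate 1 (adjusted p = 0.00826) or without wild-type replicate 2 (adjusted p = 0.0294), where the lone wild-type library is taken to vary like the rest. It missed the threshold without knockout replicate 1 (edgeR adjusted p = 0.202) or without knockout replicate 2 (0.297), with limma-voom (0.190) and after removal of a trend on gene length and abundance (0.257). Without wild-type replicate 1 no wild-type count is left and Dlk1 was at least 65.5-fold higher; without wild-type replicate 2 the ratio was 43.1 (16.8 to 159). Here and below a bound takes 3 counts over the group as the floor, and intervals and bounds cover counting error only.

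Dio3, the deiodinase that inactivates thyroid hormone, had 4.64 and 7.84 CPM in knockout cells against 1.14 and 0.667 CPM in wild-type cells. The wild-type values rest on 3 and 2 counts. The ratio of summed counts was 7.46 (3.07 to 23.5), and the difference did not pass (log2 fold change 2.76 ± 1.36, edgeR adjusted p = 0.359). Its neighbour on the other strand, the non-coding Dio3os, had 41.8 and 35.0 CPM in knockout cells against 6.83 and 11.4 CPM in wild-type cells (log2 fold change 2.07 ± 0.65, edgeR adjusted p = 0.178, DESeq2 adjusted p = 0.00329). Both genes stood higher in both knockout libraries, and the sources used here do not say whether counting used strand, so reads of one may be counted for the other. Rtl1, a retrotransposon-derived gene of the placenta and the third paternal member, had 6 and 4 counts in knockout cells and 0 and 2 in wild-type cells, too few to test.

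The maternal RNAs of the same cluster had low counts. Meg3, the long non-coding RNA at its maternal end, had 12.9 and 2.12 CPM in knockout cells against 1.14 and 6.67 CPM in wild-type cells. The libraries of the 2 genotypes interleave, and the fitted log2 fold change of 0.93 ± 1.39 (edgeR adjusted p = 0.834) turned to -0.88 without knockout replicate 1. Rian, which hosts small nucleolar RNAs, had 7 and 5 counts in knockout cells against 0 and 1 in wild-type cells, higher without overlap but too few to test. Mirg, a microRNA host, had 0 and 14 counts in knockout cells against 1 and 1 in wild-type cells. Whether Dlk1 and Meg3 respond differently was not tested. At the outer flank, Begain, a brain-expressed guanylate kinase-associated gene, stood at 19.8 and 19.7 CPM in knockout cells and 11.8 and 13.01 CPM in wild-type cells (edgeR adjusted p = 0.757).

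In the Peg10-Sgce cluster the 3 tested members stood higher in knockout libraries without overlap, as did 24.8% of all genes tested. Peg10 and Ppp1r9a reached the low-count filter through knockout libraries only, so their direction and lack of overlap were fixed. The untested Asb4 had more counts in wild-type cells. Peg10, a retrotransposon-derived gene of placental development, had 84 and 163 counts in knockout cells against 0 and 1 in wild-type cells, or 17.0 and 20.3 CPM against 0 and 0.334 CPM. The ratio of summed counts was 107, with a counting interval of 19.04 to 4247 that reflects the single wild-type count. The fitted log2 fold change was 6.53 ± 1.48 (edgeR adjusted p = 0.147, DESeq2 adjusted p = 0.00168). Without wild-type replicate 1 the ratio was 57.0 (10.1 to 2260), and without wild-type replicate 2, with no wild-type count, Peg10 was at least 16.7-fold higher.

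Sgce, which encodes epsilon-sarcoglycan and starts head to head with Peg10, had 41.0 and 50.7 CPM in knockout cells against 24.7 and 11.4 CPM in wild-type cells. That is 45.8 ± 6.84 against 18.0 ± 9.43 CPM (SD, n = 2), a 2.54-fold difference whose test gave a log2 fold change of 1.35 ± 0.57 (edgeR unadjusted p = 0.0446, adjusted p = 0.287). Unlike Peg10, Sgce was well counted in both wild-type libraries, with 65 and 34 counts. Ppp1r9a, which encodes the actin-binding protein neurabin and is read from the maternal allele, had 5.86 and 8.22 CPM in knockout cells against 1.52 and 0.667 CPM in wild-type cells. Its wild-type values rest on 4 and 2 counts (ratio 6.86, 3.04 to 19.2, edgeR adjusted p = 0.362), and without wild-type replicate 1 the ratio was 11.0 (2.95 to 91.8). Asb4, an adaptor of a ubiquitin ligase, had 0 and 1 counts in knockout cells and 0 and 4 in wild-type cells. Casd1 on the other side of Sgce had 95.3 and 72.9 CPM in knockout cells against 60.8 and 81.8 CPM in wild-type cells, with overlapping groups (edgeR adjusted p = 0.795).

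Grb10, an adaptor that restrains insulin and IGF receptor signalling and is read from the maternal allele outside neurons, had 22.4 and 65.6 CPM in knockout cells against 0 and 7.01 CPM in wild-type cells. The groups did not overlap, although the replicates of each genotype lay far apart. In counts this is 111 and 527 against 0 and 21. The mean was 44.0 ± 30.5 CPM against 3.50 ± 4.96 CPM, a 12.6-fold difference (log2 fold change 3.62 ± 1.27, edgeR unadjusted p = 0.0205, adjusted p = 0.209, DESeq2 adjusted p = 0.374). Without knockout replicate 2 the ratio of summed counts was 6.01 (3.75 to 10.1), against 13.2 (8.54 to 21.4) with all libraries and 7.01 (4.55 to 11.4) without wild-type replicate 1. Without wild-type replicate 2 Grb10 was at least 43.1-fold higher.

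Plagl1, a zinc finger transcription factor known to arrest the cell cycle, had 29.3 and 46.8 CPM in knockout cells against 8.73 and 18.4 CPM in wild-type cells. It averaged 38.0 ± 12.4 against 13.5 ± 6.80 CPM, 2.81-fold (log2 fold change 1.49 ± 0.66, edgeR adjusted p = 0.303). The edgeR, DESeq2 and authors' fold changes of the members come from the same counts and are no independent check of each other.

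**Figure D2:**
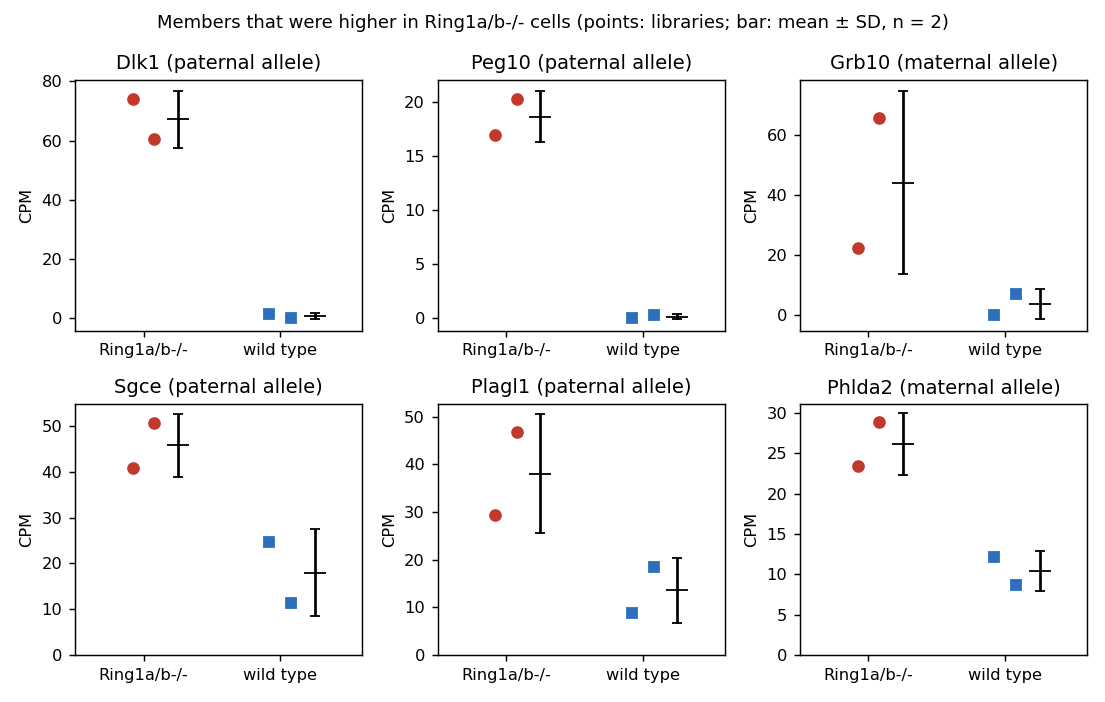
CPM of 6 members whose libraries did not overlap, in Ring1a/b-/- (circles, left) and wild-type cells (squares, right), with the mean and SD of the 2 libraries as a bar. Dlk1 and Peg10 lie at or near 0 CPM in both wild-type libraries, while Sgce, Plagl1 and Phlda2 are measured in all 4 libraries and Grb10 spreads from 22.4 to 65.6 CPM in knockout cells.

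Which of these members passed differed between tools and filters. Dlk1, Peg10, Grb10, Sgce and Plagl1 were higher in knockout cells under every setting tried. All settings draw on the same libraries. Dlk1 and Peg10 reached the low-count filter through knockout libraries only, so their direction was fixed. After removal of a trend on gene length and abundance, the log2 fold changes were 5.82 for Dlk1, 5.61 for Peg10, 2.71 for Grb10, 0.86 for Sgce and 1.08 for Plagl1.

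**Figure D3:**
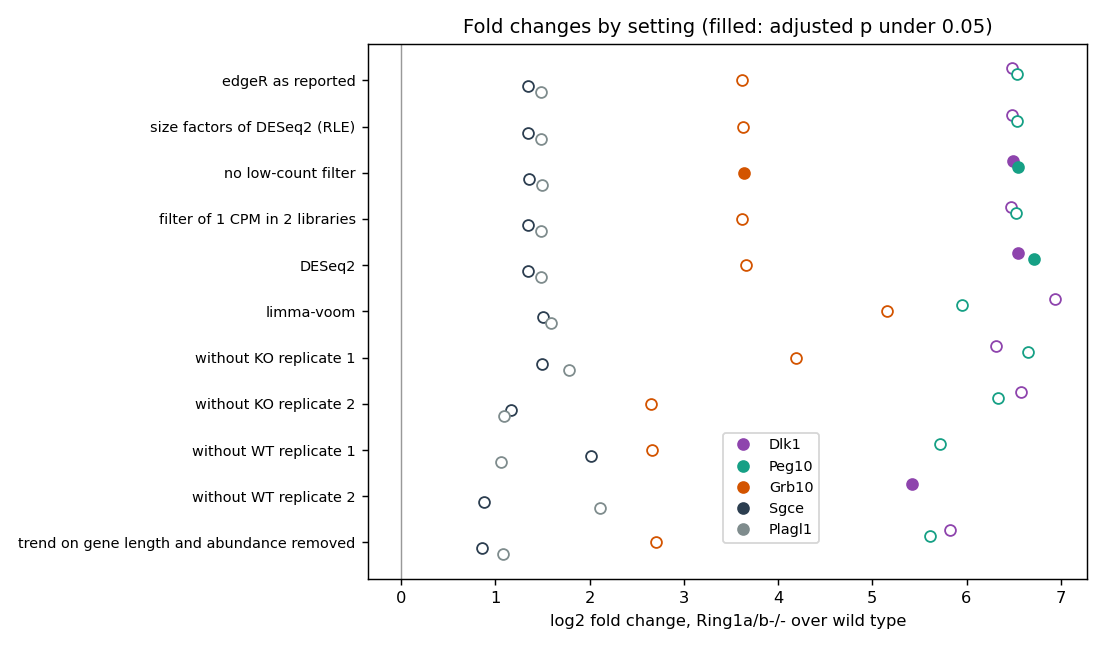
Log2 fold change (x axis, Ring1a/b-/- over wild type) of 5 members under edgeR as reported and under 10 other settings (rows). A filled point has an adjusted p under 0.05. Points without any wild-type count are left out: Dlk1 without wild-type replicate 1, and Peg10 and Grb10 without wild-type replicate 2. All points lie above 0, and the filled ones belong to Dlk1, Peg10 and Grb10. The direction of Dlk1 and Peg10 was fixed by the low-count filter.

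H19 is the maternally expressed long non-coding RNA next to Igf2 and is abundant in fetal tissues and muscle. It had 50.7 and 12.3 CPM in knockout libraries against 3.42 and 56.4 CPM in wild-type libraries. Replicates of each genotype differed more than the genotypes did: the means were 31.5 ± 27.1 and 29.9 ± 37.5 CPM (SD, n = 2 each; log2 fold change 0.07 ± 1.08, edgeR adjusted p = 0.99). On the log2 scale, leaving out knockout replicate 1 gave a fold change of -1.28, and leaving out wild-type replicate 2 gave 3.16. Igf2, the fetal growth factor that is read from the paternal allele of the same locus, had 141 and 187 CPM in knockout cells against 2.66 and 4.34 CPM in wild-type cells, and rose past the threshold (log2 fold change 5.53 ± 0.39, edgeR adjusted p = 0.00467). Whether H19 and Igf2 differ in their response was not tested.

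H19 was high in the libraries that were high in skeletal muscle transcripts. Acta1, skeletal muscle actin, had 185 and 13.7 CPM in knockout cells against 3.42 and 375 CPM in wild-type cells. Ckm, muscle creatine kinase, had 54.5 and 16.4 CPM against 0.38 and 168 CPM, and Des, desmin, had 36.3 and 14.4 CPM against 0.759 and 105 CPM. Pax7, a marker of muscle stem cells, was at 0 in all libraries, and Myh3, Myog and Myod1 of the same list had at most 1 count in each. Slc22a18, a transporter gene of the Kcnq1 cluster, took the same pair of libraries as its highest, with 14.7 and 1.49 CPM in knockout cells against 1.14 and 9.01 CPM in wild-type cells, as did Meg3. Genes of other marker lists also had this pair as their highest. Vim had 50.3 and 0.373 CPM in knockout cells against 9.49 and 28.4 CPM in wild-type cells. S100b had 5.45 and 0.124 against 0.38 and 11.0 CPM, while Col1a1 did not, at 13.3 and 17.8 against 14.4 and 113 CPM. The pattern was thus not particular to muscle genes. This grouping was seen after the values were known, and the part of muscle RNA in H19, Slc22a18 and Meg3 was not tested.

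**Figure D4:**
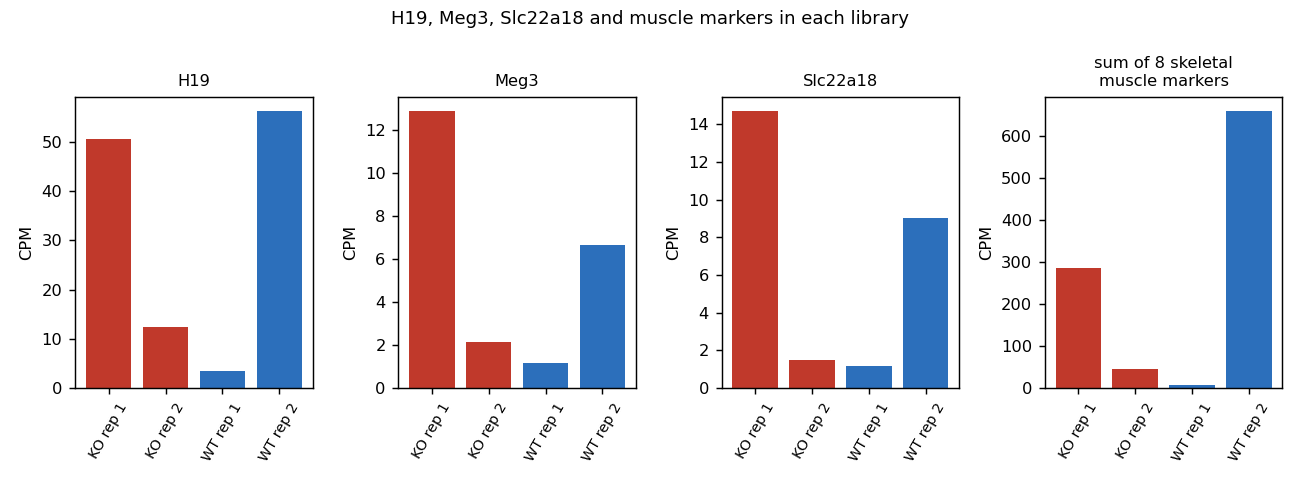
CPM of H19, Meg3, Slc22a18 and the sum of 8 skeletal muscle markers in each library, Ring1a/b-/- (KO, left pair) and wild type (WT, right pair). In each panel knockout replicate 1 and wild-type replicate 2 are the high libraries, and knockout replicate 2 and wild-type replicate 1 the low ones. Some genes of other marker lists, such as Vim and S100b, had the same pair as their highest.

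The Kcnq1 cluster has 9 members, of which 8 were tested and 0 passed. Kcnq1ot1, the paternally expressed non-coding RNA that silences its neighbours on the paternal chromosome, had 1620 and 1337 CPM in knockout cells against 906 and 1339 CPM in wild-type cells. The groups overlap, and the log2 fold change was 0.40 ± 0.22 (edgeR adjusted p = 0.422). Kcnq1, the potassium channel gene that Kcnq1ot1 runs antisense through, had 2 and 1 counts in knockout cells and 0 and 1 in wild-type cells. Without strand their reads cannot be told apart.

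Maternal members of that cluster stood on both sides of 0. Phlda2, which restrains placental growth, had 23.4 and 28.9 CPM in knockout cells against 12.2 and 8.68 CPM in wild-type cells, without overlap (26.2 ± 3.86 against 10.4 ± 2.46 CPM, 2.51-fold, log2 fold change 1.33 ± 0.72, edgeR adjusted p = 0.409). Osbpl5, a lipid transfer protein, had 47.6 and 78.1 CPM in knockout cells against 35.7 and 47.1 CPM in wild-type cells. Ascl2, a transcription factor of trophoblast and of intestinal stem cells, had 5.25 and 7.97 CPM in knockout cells against 3.80 and 0.334 CPM in wild-type cells, the last from 1 count.

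Lower in both knockout libraries were Nap1l4, Tssc4 and Cd81. Nap1l4, a histone chaperone, had 162 and 136 CPM in knockout cells against 205 and 172 CPM in wild-type cells. Tssc4 had 50.1 and 76.2 CPM against 80.1 and 88.8 CPM, and Cd81, a tetraspanin of the cell surface, had 167 and 169.9 CPM against 236 and 189.9 CPM. Each differed by a log2 fold change between -0.42 and -0.34, with edgeR adjusted p-values from 0.455 to 0.586. After removal of the trend on gene length and abundance Cd81 turned to 0.01. Cdkn1c, the imprinted cell cycle inhibitor between Kcnq1ot1 and Slc22a18, had 49.9 and 36.5 CPM in knockout cells against 0.759 and 8.34 CPM in wild-type cells (log2 fold change 3.22 ± 0.97, edgeR adjusted p = 0.167, DESeq2 adjusted p = 0.00291). Its ratio of summed counts, 8.67 (5.89 to 13.3), was 4.98 (3.34 to 7.77) without wild-type replicate 1 and 54.8 (15.1 to 453) without wild-type replicate 2.

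In the Snrpn-Ube3a cluster, 2 of 6 members were tested. Mkrn3, a makorin RING finger gene, had 28.3 and 8.84 CPM in knockout cells against 15.2 and 0 CPM in wild-type cells. Both genotypes had a high and a low library, and they overlap (log2 fold change 1.29 ± 1.55, edgeR adjusted p = 0.776). Ube3a, a ubiquitin ligase read from the maternal allele in neurons, had 109 and 75.9 CPM in knockout cells against 84.7 and 139 CPM in wild-type cells, also overlapping. Ndn, which encodes necdin, had 4 and 1 counts in knockout cells and 0 and 1 in wild-type cells, and Magel2 had 1 and 1 against 0 and 1. Snrpn, a spliceosome component, and Snurf had 0 counts in all 4 libraries. The floor of 3 counts over a genotype stands for 0.231 CPM in knockout cells and 0.533 CPM in wild-type cells. Snrpn and Snurf lie on 1 shared transcript, and how reads that fit both were counted is unknown, so these zeros do not show that the RNA is absent.

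Among the remaining loci, Peg3, a zinc finger gene of the Peg3 cluster, had 30.1 and 29.0 CPM in knockout cells against 20.9 and 19.4 CPM in wild-type cells. Replicates were close and the genotypes apart, at 29.5 ± 0.76 against 20.1 ± 1.08 CPM, yet the 1.47-fold difference did not pass (log2 fold change 0.55 ± 0.58, edgeR adjusted p = 0.731). Its head-to-head neighbour Usp29, a ubiquitin protease gene, had 3 and 4 counts in knockout cells and 2 and 1 in wild-type cells, and Zim1, another zinc finger gene, had 1 and 0 against 0 and 0. Mest, a hydrolase-fold protein of mesoderm, had 0.404 and 5.85 CPM in knockout cells against 0 and 8.34 CPM in wild-type cells. Each genotype had 1 library near 0. Copg2, a coatomer subunit that overlaps RNA from the Mest side, had 57.5 and 90.5 CPM in knockout cells against 69.1 and 87.4 CPM in wild-type cells.

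Impact, a regulator of the translational stress response, had 101 and 141 CPM in knockout cells against 145 and 159 CPM in wild-type cells. Gnas, which encodes the stimulatory G protein alpha subunit, had 187 and 172 CPM in knockout cells against 197 and 227 CPM in wild-type cells. Both were lower without overlap, and neither passed (log2 fold change -0.32 ± 0.24 and -0.24 ± 0.19, edgeR adjusted p = 0.568 and 0.606). Airn, the non-coding RNA that silences Igf2r on the paternal chromosome, had 58.8 and 69.0 CPM in knockout cells against 53.5 and 54.1 CPM in wild-type cells (edgeR adjusted p = 0.799). Igf2r, which it runs antisense through, had 151 and 144 CPM in knockout cells against 112 and 148 CPM in wild-type cells. Slc22a3, a cation transporter gene of the same cluster, had no count in any library. Nnat, which encodes neuronatin, had 3.84 and 6.35 CPM in knockout cells against 4.56 and 1.33 CPM in wild-type cells. Zrsr1, a splicing factor gene inside an intron of Commd1, had 14.1 and 14.7 CPM against 4.94 and 20.4 CPM. Commd1 itself had 91.7 and 84.3 CPM in knockout cells against 158 and 142 CPM in wild-type cells (log2 fold change -0.77 ± 0.22, edgeR adjusted p = 0.157, DESeq2 adjusted p = 0.00218).

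Grouped by the allele known to be expressed in any tissue, 13 paternal and 13 maternal members were tested. Whether each of them is read from a single allele in follicle cells was not measured. Among the paternal members 11 had a log2 fold change above 0 and 2 below, with a median of 0.79. Among the maternal members 8 lay above 0 and 5 below, with a median of 0.60. The median of all 27 tested members was 0.60, and that of all genes tested was 0.03. The median of the members was 0.25 without wild-type replicate 1, 0.36 without knockout replicate 1 and 0.80 without wild-type replicate 2. Genotypes did not overlap at 7 paternal members that were higher and 1 that was lower in knockout cells, and at 5 maternal members that were higher and 3 that were lower. Over all genes tested 24.8% were higher and 22.3% lower without overlap. The 4 members that reached the filter through the knockout alone, of which 3 are paternal, had to be higher and without overlap. The medians and the counts of members above 0 or without overlap include them. The maternal median changed sign with 1 library left out, to -0.15 without knockout replicate 1 and -0.16 without wild-type replicate 1, and after removal of a trend on gene length and abundance (-0.05). Of the 15 members with more than 10 counts in every library, 8 lay above 0 and 7 below, with a median of 0.19. The difference between paternal and maternal members was not tested.

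**Figure D5:**
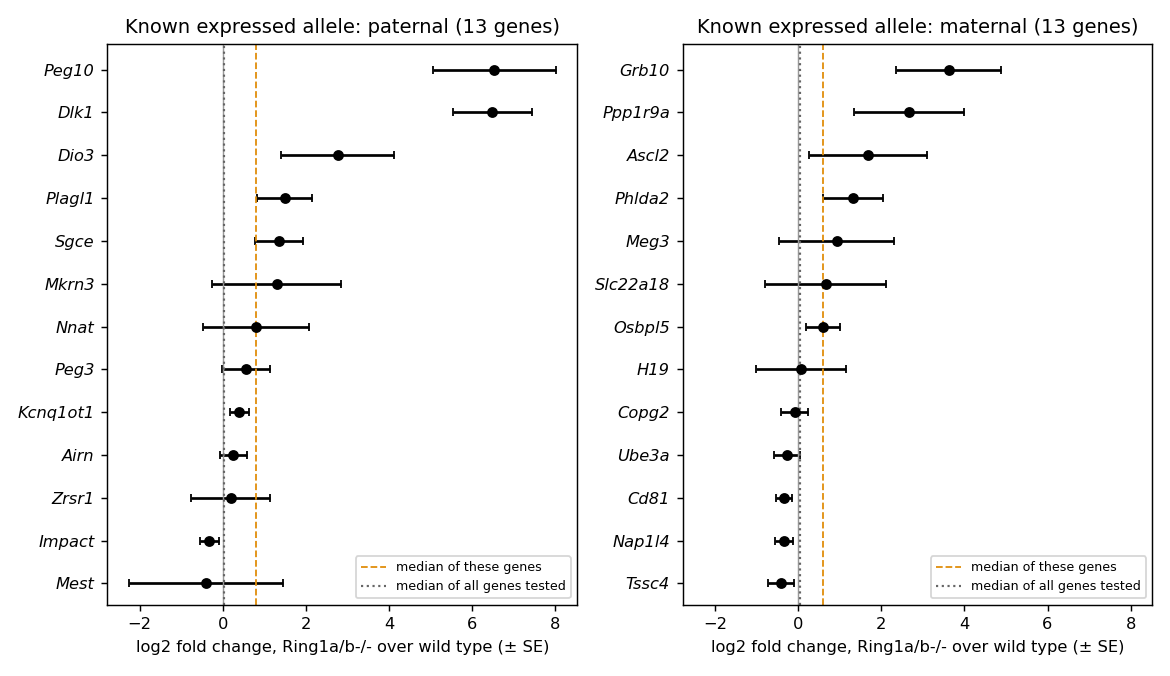
Log2 fold change (Ring1a/b-/- over wild type, ± SE) of the tested members, with genes grouped as paternally expressed at the left and as maternally expressed at the right. The dashed line is the median of each panel (0.79 and 0.60) and the dotted line the median of all genes tested (0.03). Peg10 and Dlk1 lead the paternal panel and Grb10 the maternal one, and 0 of the points passed edgeR's adjusted threshold.

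A wider list of genes reported as imprinted in the mouse, some of them in placenta or brain only, held 50 names, of which 47 were in the table and 31 were tested. In that list 1 gene rose past the threshold over all genes, Igf2, and 0 fell. At an unadjusted p under 0.05 in edgeR, 8 were higher and 2 lower, 32.3% of the 31 against 16.6% of all genes tested. Zdbf2, Sfmbt2 and Peg12 are among the 8 and had no wild-type count. They reached the filter through knockout libraries only and could only be higher, so this share is partly fixed by the filter. Its median log2 fold change was 0.28, and 0.42 to 0.72 with a library left out, the highest without wild-type replicate 2. Zdbf2, a zinc finger gene whose expression depends on early imprinting, had 210 and 114 counts in knockout cells and 0 in both wild-type libraries, at least 46.8-fold higher, or at least 21.9-fold without wild-type replicate 2 (edgeR adjusted p = 0.124, DESeq2 adjusted p = 3.02e-05). Sfmbt2, a Polycomb-related gene imprinted in extraembryonic tissue, had 14 and 429 counts in knockout cells and 0 in both wild-type libraries, at least 64.0-fold higher, or at least 5.3-fold without knockout replicate 2 (edgeR adjusted p = 0.149, DESeq2 adjusted p = 0.0649). Peg12, a neighbour of Mkrn3, had 27 and 66 counts against 0 in both wild-type libraries, at least 13.4-fold higher, or at least 6.29-fold without wild-type replicate 2 and 7.15-fold without wild-type replicate 1 (edgeR adjusted p = 0.158). Dcn, the matrix proteoglycan decorin, had 272 and 159 CPM in knockout cells against 593 and 430 CPM in wild-type cells (log2 fold change -1.25 ± 0.28, edgeR adjusted p = 0.147). Decorin is also on the fibroblast list and supplies much of its sum, so that sum is no separate measure of fibroblast RNA beside it.

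Of 20 factors listed here as linked to setting or keeping imprints, not all of them by methylating DNA, 18 were tested and 0 passed over all genes. At an unadjusted p under 0.05 in edgeR, 1 was higher and 3 were lower. That is 22.2% of the 18, against 16.6% of all genes tested. DESeq2 called 1 higher and 3 lower, where it called 12.4% of all genes. Dnmt3a, which methylates DNA anew, had 173 and 158 CPM in knockout cells against 52.4 and 87.4 CPM in wild-type cells (log2 fold change 1.24 ± 0.28, edgeR adjusted p = 0.147, DESeq2 adjusted p = 0.000289). Cbx3, an HP1 protein of silent chromatin, had 270.3 and 215 CPM against 427 and 388 CPM (log2 fold change -0.75 ± 0.19, edgeR adjusted p = 0.149, DESeq2 adjusted p = 0.000461). Uhrf1, which guides the maintenance methyltransferase, had 198 and 200.3 CPM in knockout cells against 295 and 249 CPM in wild-type cells. Trim28, the corepressor recruited by ZFP57, had 148 and 168 CPM against 188 and 262 CPM. Zfp57 itself had 4.85 and 13.9 CPM in knockout cells against 0 and 11.7 CPM in wild-type cells, and the maintenance methyltransferase Dnmt1 had 261 and 226 CPM against 269 and 284 CPM (edgeR adjusted p = 0.706).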

How the data were processed

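The authors deposited whole-number counts per gene symbol with no normalization, a column for each RNA library. For build mm9 and, with no role stated, HTSeq 0.7.2, DESeq2, TopHat2 2.1.1, MACS2 2.1.1, Picard 1.62, bcl2fastq 2 and Bowtie 1.2.2, the source is the submitters' processing notes. The sources used here do not give the annotation or the use of strand. The authors' deposited comparison gives, per the file headers, a log2 fold change and adjusted p-values, and its own marks. The Ring1b peak lists on mm9 were not used here, since genes and peaks could not be placed on 1 build.

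The main test was that of edgeR 4.0.16 under R 4.3.3 (filterByExpr, TMM, robust quasi-likelihood fit, genotype as the only term), fitted on the whole table with Benjamini-Hochberg adjustment at 0.05. SE is the absolute log2 fold change divided by root F. Alternatives used DESeq2 1.42.0, limma 3.58.1 (voom), other filters and scalings, libraries left out in turn, a replicate block and a trend on gene span and abundance. Fits were tested on simulated data. Members get values per library. Of other imprinted genes and imprint maintenance factors, those past the threshold or with the smallest p were named, with Igf2 and Cdkn1c. Dio3os, Begain, Casd1, Igf2r, Zfp57 and Dnmt1 were added after their values were seen, as neighbours or as background. The members, lists, clusters and rule were chosen with earlier results of these data known. Intervals are exact binomial (95%). GRCm38.p6 tables gave spans, neighbours and promoter windows, and no coordinates were converted.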

Additional observations from a re-analysis of the deposited data

How the results depend on the processing

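Of the 27 tested members, 17 kept the direction of their fold change under all 12 alternatives and 10 turned under at least 1. The 17 include Dlk1, Dio3, Peg10 and Ppp1r9a, which reached the low-count filter through knockout libraries only, so their direction was fixed. The count of members past the threshold, 0 with edgeR, was 3 without a low-count filter (Dlk1, Peg10 and Grb10), 2 with DESeq2, 0 with limma-voom and 0 to 1 with each library left out, where Dlk1 was the member called. All genes past the threshold numbered 8, and 802 without the filter (455 higher, 347 lower), 1 with a filter of 1 CPM in 2 libraries, 1792 with DESeq2, 0 with limma-voom (1956 at an unadjusted p under 0.05), 1 with the trend on gene span and abundance removed, and 0 to 60 with a library left out. Members at an unadjusted p under 0.05 numbered 6 without the filter and 7 with DESeq2, against 4 with edgeR. The cause of these differences between tools and filters was not tested.

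The median log2 fold change of the members, 0.60, was 0.0119 with that trend removed. That of the maternal members was -0.0478 with the trend removed and ran from -0.165 to 0.803 with a library left out; that of the paternal members, 0.79, was 1.03 with limma-voom, 0.37 with the trend removed and 0.527 to 1.06 with a library left out. Other imprinted genes past the threshold numbered 1, and 6 without the filter, 7 with DESeq2, 0 with limma-voom and 0 to 1 with a library left out. Imprint maintenance factors numbered 0, and 2 without the filter, 4 with DESeq2 and 0 to 1 with a library left out.

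Single members turned as follows on the log2 scale. With the trend removed, H19 was at -0.116, Meg3 at -0.0478, Slc22a18 at -0.249, Cd81 at 0.0119, Nnat at -0.178, Zrsr1 at -0.213 and Airn at -0.0584. With limma-voom Mest was at 0.666. With a library left out, H19 ran from -1.28 to 3.16, Meg3 from -0.881 to 2.66, Mest from -3.27 to 7.05, Copg2 from -0.458 to 0.208, Slc22a18 from -1.75 to 2.77, Ube3a from -0.586 to 0.103 and Zrsr1 from -0.492 to 1.52. The Mest value of 7.05, without wild-type replicate 2, has no wild-type count behind it and is not a measured fold change. In that setting Mest was at least 3.31-fold higher in knockout cells, from 49 knockout counts. Scaling by DESeq2 size factors turned 0 members.

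The labels give no batch. Deviations of same-numbered libraries from their genotype means correlated at -0.141 across 13134 genes, which are not independent replicates. With 2 libraries per genotype this is 1 contrast, so it cannot decide whether libraries were paired. With the replicate block edgeR called 3 members, 416 genes in all (213 higher, 203 lower), 5 other imprinted genes and 2 maintenance factors, and Mest was at 0.403. With the crossed replicate block, an alternative added after seeing the data, edgeR called 0 members and 8 genes, and Mest was at 0.019. Depth limits the members with few wild-type counts most, where 1 count is worth 0.334 to 0.38 CPM.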

Other observations

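Several genes of the wider imprinted list, picked after their values were seen, did not pass the low-count filter although at least 1 library held 19 or more counts. Tspan32, a leukocyte and placental tetraspanin gene of the Kcnq1 cluster, had 102 and 2 counts in the knockout against 0 and 1 in the wild type. Th, which encodes tyrosine hydroxylase and lies near Ascl2, had 0 counts in both knockout libraries against 0 and 55 in the wild type. Tfpi2, a protease inhibitor of the Peg10 neighbourhood, had 0 and 29 counts in the knockout and 0 in both wild-type libraries. Nap1l5 had 0 and 19 counts in the knockout and 0 in both wild-type libraries. Atp10a, a lipid flippase gene beyond Ube3a, had 50 and 16 counts in the knockout against 0 and 1 in the wild type, 28.6 times the wild-type level (95% counting interval 4.96 to 1147).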
